A study of Mus musculus with 98 samples.

Results

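Glycolysis and glucose uptake were described in single intestinal innate lymphoid cells (ILCs) through 32 genes chosen by name, not by level, from 23420 gene symbols in the deposited tables. The list holds 2 glucose transporters, the 19 enzyme genes from hexokinase to lactate dehydrogenase, 2 genes whose enzymes tune phosphofructokinase, 2 lactate transporters, 5 genes of pyruvate dehydrogenase and its kinases, and the transcription factors Hif1a and Myc. All 32 were found in both tables. R9-ILCs were single CD45.2+GFP+Lin-CD127+ cells taken from the gut of Rag2-/-Il2rg-/- recipients at 3 weeks after transplantation. From what is known of the study, they descend from mouse pluripotent stem cells. The recipients lack their own lymphocytes, so the R9 cells grew in a host without resident ILCs. WT-ILCs were single CD45.2+Lin-CD127+ cells from the intestines of C57BL/6 animals of wild type, aged 8 weeks. The strain label is C57BL/6 for both groups, and neither the age nor the number of recipients is given in the sources used here. R9 titles fall into a series with the ending 1 (35 cells) and a series without an ending (32 cells). The labels do not say what the ending means, so both series are shown apart, beside 22 WT cells.

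Glycolysis splits glucose into pyruvate in the cytosol and yields ATP without oxygen. Hexokinase traps glucose in the cell, phosphofructokinase commits it to the pathway, and pyruvate kinase makes the final ATP. Lactate dehydrogenase then turns pyruvate into lactate, or pyruvate dehydrogenase passes it to the citrate cycle. Many steps have several paralogous genes with different kinetics, and tissues differ in which paralog they use. Activated lymphocytes are known for high glucose uptake and lactate release, which HIF-1 and Myc both promote by binding near glycolytic genes.

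The promoter windows of the 5 genes on which the results below turn are shown, as 4 were detected in nearly all cells and Ldhb is the paralog of Ldha that was lower in both R9 series. Each is a RefSeq window of GRCm38.p6 from 250 bases before to 50 bases after an annotated start, written 5′ to 3′ on the gene's strand. Where a gene has several windows, the first that holds ACGTG was taken, or else the first listed. Capitals mark CACGTG, the E-box that Myc and its partners bind, and ACGTG, the core of the hypoxia response element, which is read as CACGT on the other strand. ACGTG lies inside every CACGTG.
Ldha, chr7:46845554-46845853, plus strand: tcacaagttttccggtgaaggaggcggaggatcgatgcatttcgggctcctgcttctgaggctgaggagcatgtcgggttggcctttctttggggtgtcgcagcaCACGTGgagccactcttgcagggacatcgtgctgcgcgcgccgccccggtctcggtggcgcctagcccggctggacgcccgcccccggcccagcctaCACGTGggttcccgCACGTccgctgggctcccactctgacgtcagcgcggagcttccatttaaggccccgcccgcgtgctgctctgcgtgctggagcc
Ldhb, chr6:142507908-142508207, minus strand: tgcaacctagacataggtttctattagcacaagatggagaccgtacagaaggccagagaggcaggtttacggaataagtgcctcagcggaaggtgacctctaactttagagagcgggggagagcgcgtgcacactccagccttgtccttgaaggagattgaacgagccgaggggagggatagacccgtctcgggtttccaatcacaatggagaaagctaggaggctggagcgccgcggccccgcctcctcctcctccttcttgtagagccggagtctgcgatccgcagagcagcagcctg
Aldoa, chr7:126799205-126799504, minus strand: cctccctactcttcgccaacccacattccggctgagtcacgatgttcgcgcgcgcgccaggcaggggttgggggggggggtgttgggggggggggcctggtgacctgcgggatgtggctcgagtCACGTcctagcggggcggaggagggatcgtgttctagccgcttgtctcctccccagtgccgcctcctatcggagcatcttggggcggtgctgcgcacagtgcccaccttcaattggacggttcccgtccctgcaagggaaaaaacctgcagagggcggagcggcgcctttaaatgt
Eno1, chr4:150236458-150236757, plus strand: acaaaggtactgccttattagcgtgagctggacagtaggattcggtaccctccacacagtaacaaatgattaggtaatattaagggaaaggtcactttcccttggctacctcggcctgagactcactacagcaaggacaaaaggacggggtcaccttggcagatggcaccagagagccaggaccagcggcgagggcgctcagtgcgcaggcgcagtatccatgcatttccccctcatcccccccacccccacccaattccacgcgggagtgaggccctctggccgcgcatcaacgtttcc
Pkm, chr9:59656977-59657276, plus strand: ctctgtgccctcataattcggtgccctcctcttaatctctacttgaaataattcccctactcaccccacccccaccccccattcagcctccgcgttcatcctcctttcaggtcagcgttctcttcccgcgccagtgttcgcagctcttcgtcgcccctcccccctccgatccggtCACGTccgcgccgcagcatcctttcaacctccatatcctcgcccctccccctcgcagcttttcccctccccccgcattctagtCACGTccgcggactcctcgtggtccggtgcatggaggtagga
The Ldha window holds 2 copies of CACGTG and 1 further ACGTG, the Pkm window holds 2 ACGTG and the Aldoa window holds 1. Neither the Eno1 window nor the Ldhb window holds these letters. Of the 30 members with a window (all but Slc2a3 and Myc), 19 had ACGTG on either strand in at least 1 window, or 63.3%, against 21.8% of 27025 genes. CACGTG was found in 6 of the 30 (20%), against 8.09% of all genes. Counted by window, ACGTG was in 50% of 44 member windows against 19.6% of all 32851, and CACGTG in 13.6% against 7.15%. These matches describe letters only, and neither base composition nor the number of windows per gene was matched.

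Each sample was 1 cell and the labels name no animal, so each group counts as 1 sample, differences have no replicate check and no p-value was computed. Levels are TPM, a value per transcript length whose sum is 1e+06 in each column. How deeply each cell was sequenced cannot be read from TPM. At 1 TPM or more, a median of 2429 genes was detected in R9 cells of ending 1 (1913 to 6042). The median was 2082.5 in those without an ending (1187 to 2989) and 2092.5 in WT cells (793 to 7518). At least 10% of the summed TPM lay in 1 gene in 1, 26 and 5 cells of these sets. The 22 WT cells came from 31 columns, since columns that correlated above 0.8 were averaged as 1 cell. The tables of R9 and WT were normalized separately, so a ratio over WT is set across tables, and only the 2 R9 series share a table. The labelled cell type was checked with 9 ILC markers, whose summed level had a median of 10188.5, 3790 and 2386 TPM, while Il13, Il5 and Il17a were listed at 0 in every cell. Sums over 14 epithelial markers had medians of 64.4 TPM in R9 cells of ending 1 (0.753 to 17545), 1311 TPM in those without an ending (37.3 to 435978) and 20009 TPM in WT cells (14.5 to 221971).

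Glycolytic transcripts were seen in every cell, and 4 enzymes carried most of them. Ldha, Aldoa, Eno1 and Pkm were each detected at 1 TPM or more in at least 90% of the cells of all 3 sets, a mark that 161 of 23420 genes reached. Together they made up 75.5%, 70.6% and 76.5% of the summed mean level of the 19 enzymes in R9 cells of ending 1, R9 cells without an ending and WT cells. By median they were the 4 highest enzymes in every set. By mean, however, Pgam1 had rank 2 in cells without an ending and Ldhb rank 3 in WT cells. Scaling a column cannot change which lactate dehydrogenase gene is the higher within it, and this choice differed between R9 and WT cells. Ldhb exceeded Ldha in 1 of 35 and 2 of 32 R9 cells, against 8 of 22 WT cells. Differences over the whole list, in contrast, were, as deposited, close to those over all genes in each comparison.

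**Figure D1:**
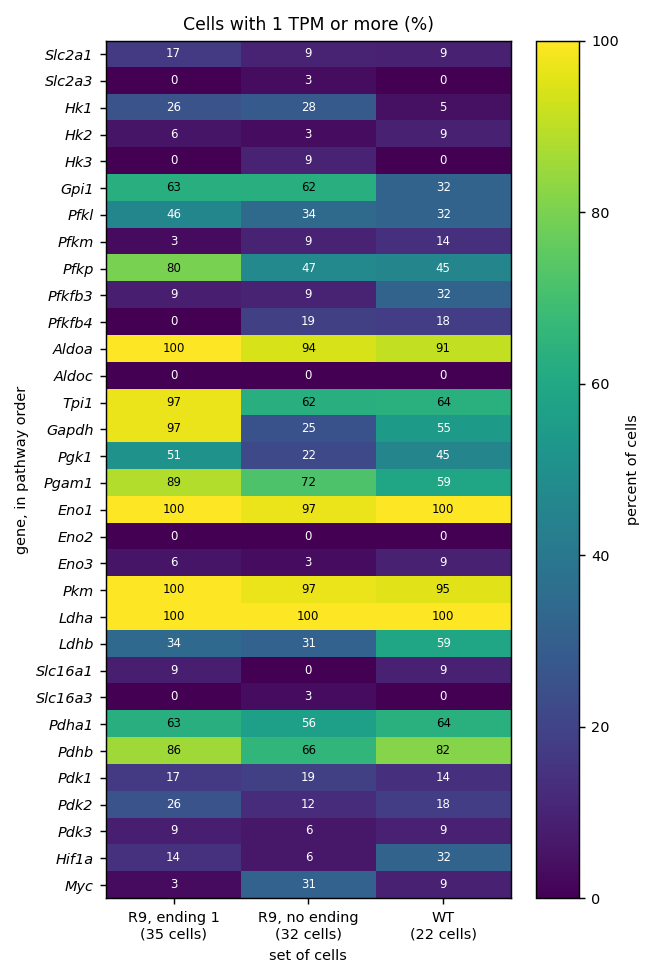
Percent of cells with 1 TPM or more for each of the 32 genes (rows, in pathway order) in the 3 sets of cells (columns). Ldha, Aldoa, Eno1 and Pkm are at 91 percent or more in all 3 sets, while Aldoc and Eno2 are at 0.

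Of the 32 members, 25 averaged 10 TPM or more in at least 1 set, 5 stayed below 10 TPM in all sets (Slc2a3, Hk2, Hk3, Slc16a1 and Slc16a3), and 2 were listed at 0 in every cell. These 2 were Aldoc and Eno2, known from nervous tissue. Detection at 1 TPM in 50% of the cells of some set was reached by 13 members and missed by 19. A cell held a median of 12 detected members in R9 cells of ending 1 (7 to 19), 10 in R9 cells without an ending (6 to 15) and 10.5 in WT cells (6 to 20). The sets overlapped widely, and cells with more genes detected had more members detected (Spearman's rho of 0.71, 0.80 and 0.79 across cells, as a description). A listed 0 can be a failed estimate, so it is not read as absence.

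Low values were not spread alike over the sets. Of all member values at 1 TPM or more, 27.7% lay below 10 TPM in R9 cells of ending 1, 7.23% in those without an ending and 25.4% in WT cells. The same shares over all genes were 36.2%, 10.6% and 34.4%. Detection at 1 TPM therefore takes in a low range that the R9 cells without an ending hardly have, and counts at 100 TPM are given below where this matters. In R9 cells of ending 1 the low values formed a group of their own for Tpi1, with 13 cells from 1 to 10 TPM, 0 from 10 to 100 and 21 at 100 TPM or more.

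Ldha, on chromosome 7 from 46842274 to 46855627 (GRCm38), encodes the lactate dehydrogenase subunit that favours making lactate. Its lowest, median and highest levels were 5.38, 829 and 4191 TPM in R9 cells of ending 1, 22.2, 278 and 974 TPM in R9 cells without an ending, and 4.18, 242 and 7909 TPM in WT cells. The 3 sets overlapped, and the highest cell of all was a WT cell that held 41.4% of the WT sum. At 100 TPM or more, Ldha was seen in 27 of 35, 27 of 32 and 13 of 22 cells.

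Aldoa, on chromosome 7 from 126795234 to 126800994, encodes the aldolase that cleaves fructose bisphosphate in most tissues. It had a lowest, median and highest level of 5.73, 967 and 5277 TPM in R9 cells of ending 1, of 0, 170 and 1300 TPM in R9 cells without an ending, and of 0, 291 and 23818 TPM in WT cells. Most R9 cells of ending 1 lay above the medians of the other sets, but the highest WT cells lay above all R9 cells. As a result the mean and the median rank the sets differently: means were 1376, 278.1 and 2319 TPM, and 1 cell held 46.7% of the WT sum. The log2 ratio of ending 1 over WT was -0.75 from mean levels but 1.61 as a difference of mean log2 levels, so no direction is given for Aldoa between these sets.

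Eno1, on chromosome 4 from 150236708 to 150248879, encodes the widespread enolase of the pathway's later steps. Its levels ran from 3.05 over a median of 771 to 2052 TPM in R9 cells of ending 1, from 0 over 250.5 to 1663 TPM without an ending, and from 3.02 over 157 to 1075 TPM in WT cells. R9 cells of ending 1 were the highest set by the lowest cell, median and highest cell, though all sets overlapped. The log2 ratio of the mean in ending 1 over WT was 1.38, against a median of 0.94 over all genes. It was above 0 in all 13 alternatives, but the lowest of them, 0.57, was below that 0.94. Here and below, alternatives that change only the filter on the mean leave a gene's own ratio as reported. The Eno1 ratio without an ending over WT was 0.23, against -0.67, and took both signs.

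Pkm, on chromosome 9 from 59656576 to 59679372, encodes the pyruvate kinase of dividing cells, muscle and brain. Levels were 4.5998 at the lowest, 652 at the median and 3189 TPM at the highest in R9 cells of ending 1, 0, 226 and 21956 TPM without an ending, and 0, 75.6 and 1128 TPM in WT cells. Both R9 series had a higher median than WT, and all 3 sets overlapped. A single R9 cell without an ending held 63.1% of that set's sum, and its mean was 1087 TPM with that cell and 413.8 TPM without it. The log2 ratio over WT was 2.11 for ending 1 and 2.33 without an ending, beside 0.94 and -0.67 for the median gene. With the highest cell of each set left out, the Pkm ratio was 2.33 and 1.26. It was above 0 in all 13 alternatives of both comparisons.

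**Figure D2:**
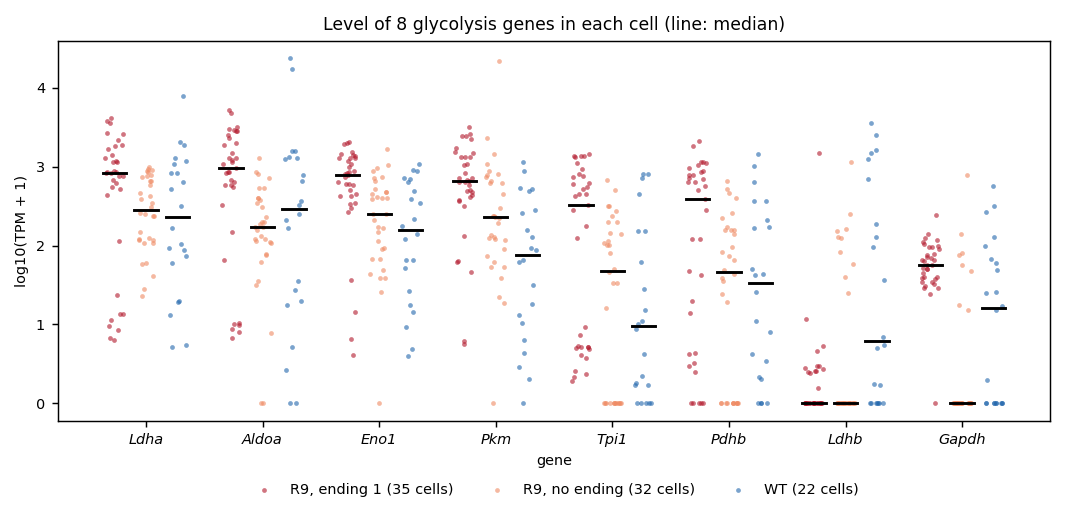
Level of 8 genes in each cell, as log10(TPM + 1) on the vertical axis, for R9 cells of title ending 1, R9 cells without an ending and WT cells, with the median as a line. The sets overlap for every gene, and Ldhb is below 1 TPM in most R9 cells of both series.

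Transcripts for the first steps of the pathway were seen in few cells. Slc2a1, which encodes the main glucose carrier of blood and immune cells, was detected in 6 of 35 R9 cells of ending 1, 3 of 32 without an ending and 2 of 22 WT cells. Its highest cells had 1107, 85.7 and 706 TPM, and its median was 0 in all sets. The 1 high cell of ending 1 held 99.0% of that set's sum, so no ratio is drawn from its mean. Slc2a3, the carrier with higher affinity, was seen in 1 R9 cell without an ending, at 23.3 TPM, and listed at 0 elsewhere.

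Hk1, the hexokinase that most tissues use, led its family by mean level in all 3 sets. It was detected in 9 of 35 R9 cells of ending 1 (25.7%, 95% exact Clopper-Pearson interval 12.5 to 43.3), in 9 of 32 without an ending (28.1%, 13.7 to 46.7) and in 1 of 22 WT cells (4.55%, 0.115 to 22.8). These intervals, like those given further on, cover counting error over cells only and are no test between the sets. The means were 62.3, 10.8 and 3.08 TPM, the medians 0.253, 0 and 0 TPM, and the highest cells had 638, 179 and 66.3 TPM. In WT cells 1 cell held 97.9% of the sum, and Hk2 led the family there once the highest cells were left out. Hk2, the inducible hexokinase, was seen in 2, 1 and 2 cells, with at most 80.9 TPM. Hk3, known from myeloid cells, was seen in 3 R9 cells without an ending at up to 40.9 TPM and listed at 0 in all cells of ending 1 and of WT. Beside it, the summed level of 6 mast cell markers had a median of 1349 TPM in R9 cells without an ending (61.1 to 4659), against 0 in R9 cells of ending 1 (0 to 616) and 0 in WT cells (0 to 3.91). None of these markers was at 0 in all cells without an ending, whereas Tpsb2, Mcpt4, Tpsab1 and Fcer1a were at 0 in all cells of the other sets. The summed level of 7 macrophage and dendritic markers had a median of 444.5 TPM in R9 cells without an ending (39.99 to 3920), against 0 in R9 cells of ending 1 (0 to 1874) and 1.49 TPM in WT cells (0 to 4834). Of these, Lyz2 was detected in 31 of 32 cells without an ending, 10 of 35 of ending 1 and 7 of 22 WT cells, while Itgax was at 0 in all cells without an ending, and C1qb, Csf1r and Itgax were at 0 in all cells of ending 1. The part of these cell types in the Hk3 values was not tested.

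Gpi1, which encodes glucose phosphate isomerase, was detected in 62.9%, 62.5% and 31.8% of cells. At 10 TPM or more it was seen in 37.1%, 62.5% and 22.7%. Its median was 1.31 TPM in R9 cells of ending 1 and 21.9 TPM without an ending, while it was listed at 0 in most WT cells. The highest cells had 686, 2472 and 283 TPM, so the sets overlapped. The log2 ratio of the mean over WT was 1.91 and 2.36, and it stayed above 0 in all 13 alternatives in both comparisons (1.06 to 3.33 and 2.00 to 4.94). Relative to all genes it stood 0.97 and 3.03 above the median.

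Phosphofructokinase, the committed step, is built from liver, muscle and platelet type subunits. Pfkp, the platelet type, made up 63.4% of the family's summed mean in R9 cells of ending 1, 62.4% in those without an ending and 27.3% in WT cells, where Pfkl, the liver type, made up 58.8%. Counted by cell, Pfkp was the highest of the 3 genes in 21 of 32, 12 of 22 and 6 of 14 cells with any of them, and Pfkl in 10, 7 and 7. The exact intervals for Pfkp were 46.8 to 81.4%, 32.2 to 75.6% and 17.7 to 71.1%. In ending 1 the count by cell rests partly on low values, since 13 of 28 cells with Pfkp detected had 1 to 10 TPM. At 10 TPM or more Pfkp was seen in 42.9%, 43.8% and 36.4% of cells, and at 100 TPM or more in 14, 3 and 2 cells. Pfkp ran from 0 over 5.54 to 790 TPM in R9 cells of ending 1, from 0 over 0 to 182 TPM without an ending, and from 0 over 0.564 to 664 TPM in WT cells. Pfkl ran from 0 over 0.820 to 1098 TPM in R9 cells of ending 1, from 0 over 0 to 122 TPM without an ending, and from 0 over 0.112 to 867 TPM in WT cells. Pfkm, the muscle type, was seen in 1, 3 and 3 cells, with a median of 0 and highest cells of 174, 32.1 and 542 TPM.

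Pfkfb3 and Pfkfb4, whose enzymes make and break the main activator of phosphofructokinase, were also scarce. Pfkfb3 was detected in 3 of 35 R9 cells of ending 1, 3 of 32 without an ending and 7 of 22 WT cells. Pfkfb4 was detected in 0, 6 and 4. Both had a median of 0 in all sets, and the highest cells had 425, 6.73 and 158 TPM of Pfkfb3 and 0.506, 50.7 and 665 TPM of Pfkfb4. Their leading gene differed between sets and, in WT cells, turned from Pfkfb4 to Pfkfb3 without the highest cells, so no order is read from it.

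Tpi1, the triose phosphate isomerase gene, was detected in 97.1%, 62.5% and 63.6% of cells. It ran from 0.928 over a median of 325 to 1424 TPM in R9 cells of ending 1, from 0 over 47.1 to 675 TPM in those without an ending, and from 0 over 8.52 to 802 TPM in WT cells. At 100 TPM or more it was seen in 21 of 35, 14 of 32 and 6 of 22 cells. The log2 ratio of ending 1 over WT was 1.62, beside 0.94 for the median gene. It was above 0 in all 13 alternatives, but the lowest of them, 0.90, was no higher than that 0.94. The ratio of the cells without an ending was -0.35, beside -0.67 for the median gene, and took both signs.

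Gapdh, the enzyme gene that many assays use as a constant reference, was listed unevenly. It was detected in 34 of 35 R9 cells of ending 1, 8 of 32 without an ending and 12 of 22 WT cells. Its lowest, median and highest levels were 0, 56.5 and 240 TPM, 0, 0 and 780.5 TPM, and 0, 15.3 and 568 TPM in that order of sets. In ending 1 all detected cells lay above 10 TPM, whereas 24 of the 32 cells without an ending lay below 1 TPM. A search of GENCODE transcripts on GRCm38 found 150 annotated genes with a copy at 90% identity or more over at least 50% of the Gapdh transcript, of which 144 are pseudogenes. The tables list 9 of them. One is the predicted gene Gm12070, which had means of 88.3, 47.2 and 57.5 TPM, against 67.2, 37.6 and 74.0 TPM for Gapdh. Of the 24 cells without an ending that lacked Gapdh, 21 had Gm12070 at 1 TPM or more, and no cell of any set had Gapdh without Gm12070. Reads from these copies cannot be told apart here, so Gapdh values are uncertain and give no direction. Copies by the same measure were also found for Ldha and Eno1 (6 each), Aldoa and Pkm (5 each), Pgk1 (2), and Ldhb and Pdhb (1 each), most of them pseudogenes.

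Pgk1, which encodes the first of the pathway's ATP-making enzymes, was detected in 18 of 35 R9 cells of ending 1, 7 of 32 without an ending and 10 of 22 WT cells, with means of 126, 10.5 and 62.5 TPM, medians of 1.16, 0 and 0.234 TPM and highest cells of 1007, 109 and 448 TPM. At 100 TPM or more it was seen in 9, 2 and 5 cells. The log2 ratio between the R9 series was 3.47, beside 1.61 for the median gene, and it was above 0 in all 10 alternatives. Pgam1, the phosphoglycerate mutase gene, reached 1 TPM in 88.6%, 71.9% and 59.1% of cells but 10 TPM in 51.4%, 65.6% and 45.5%, so the order of the R9 series turned with the limit. Its medians were 22.002, 31.99 and 2.59 TPM, and its highest cells had 819, 13382 and 1132 TPM. The 1 R9 cell without an ending at 13382 TPM held 88.4% of that set's sum. Eno3, the muscle enolase, was seen in 2, 1 and 2 cells, with a median of 0 and highest cells of 554, 21.5 and 34.96 TPM.

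Ldhb encodes the lactate dehydrogenase subunit that favours turning lactate back into pyruvate, and lies on chromosome 6 from 142490249 to 142507957. It was detected in 12 of 35 R9 cells of ending 1, 10 of 32 without an ending and 13 of 22 WT cells. Its lowest, median and highest levels were 0, 0 and 1472 TPM, 0, 0 and 1133 TPM, and 0, 5.23 and 3559 TPM. High cells occurred in all sets, so the ranges overlapped. The share of high cells differed more than detection did. At 100 TPM or more it was found in 1 of 35 R9 cells of ending 1, in 6 of 32 with no ending and in 8 of 22 WT cells, and the other 11 detected cells of ending 1 had at most 10.8 TPM.

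The means were 43.0 TPM in R9 cells of ending 1, where 1 cell held 97.8% of the sum, 67.1 TPM without an ending and 528 TPM in WT cells. The log2 ratio over WT was -3.59 for ending 1 and -2.96 without an ending, beside 0.94 and -0.67 for the median gene. Both were below 0 in all 13 alternatives (-8.44 to -2.75 and -3.51 to -1.80). Members were used where the mean reached 1 TPM in at least 1 of the sets. Of 27 and 28 such members, Ldhb was among 4 and 13 lower by 2-fold or more. As background, 20.4% and 44.5% of all genes were lower by 2-fold or more in these comparisons.

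Within a single column, the order of Ldha and Ldhb does not depend on how columns or tables were scaled. In WT cells averaged from more than 1 column, it can depend on the relative scale of those columns. Ldhb was the higher of the 2 in 1 of 35 R9 cells of ending 1 (2.86%, interval 0.0723 to 14.9), 2 of 32 without an ending (6.25%, 0.766 to 20.8) and 8 of 22 WT cells (36.4%, 17.2 to 59.3). In 1 of the 2 R9 cells without an ending the levels nearly tied, at 57.05 TPM of Ldhb and 57.02 TPM of Ldha. Some of the 8 WT cells were averages of columns. The 8 WT cells had Ldhb from 5.99 over a median of 984 to 3559 TPM and Ldha from 4.18 over 88.9 to 2054.5 TPM, and 3 of them had both at 100 TPM or more. Without joining columns, the share was 10 of 29 WT columns that had either gene. It was 7 of 21 columns of WT title ending 2 and 3 of 7 of WT title ending 1.

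Epithelial marker levels overlapped widely between these WT cells and the others. The summed level of the 14 markers had a median of 10497 TPM in the 8 WT cells with more Ldhb (14.5 to 109605), against 50736.5 TPM in the other 14 (105 to 221971). Leaving out the cells of the top quartile of epithelial sums in each set gave 0 of 26 R9 cells of ending 1, 1 of 24 without an ending and 7 of 16 WT cells. The WT mean of Ldhb was then 718 TPM. Leaving out cells with 1 gene at 10% or more of TPM gave 1 of 34, 1 of 6 and 7 of 17 cells. With only 6 cells left, the R9 series without an ending then says little. The part of epithelial transcripts in the Ldhb values was not tested.

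**Figure D3:**
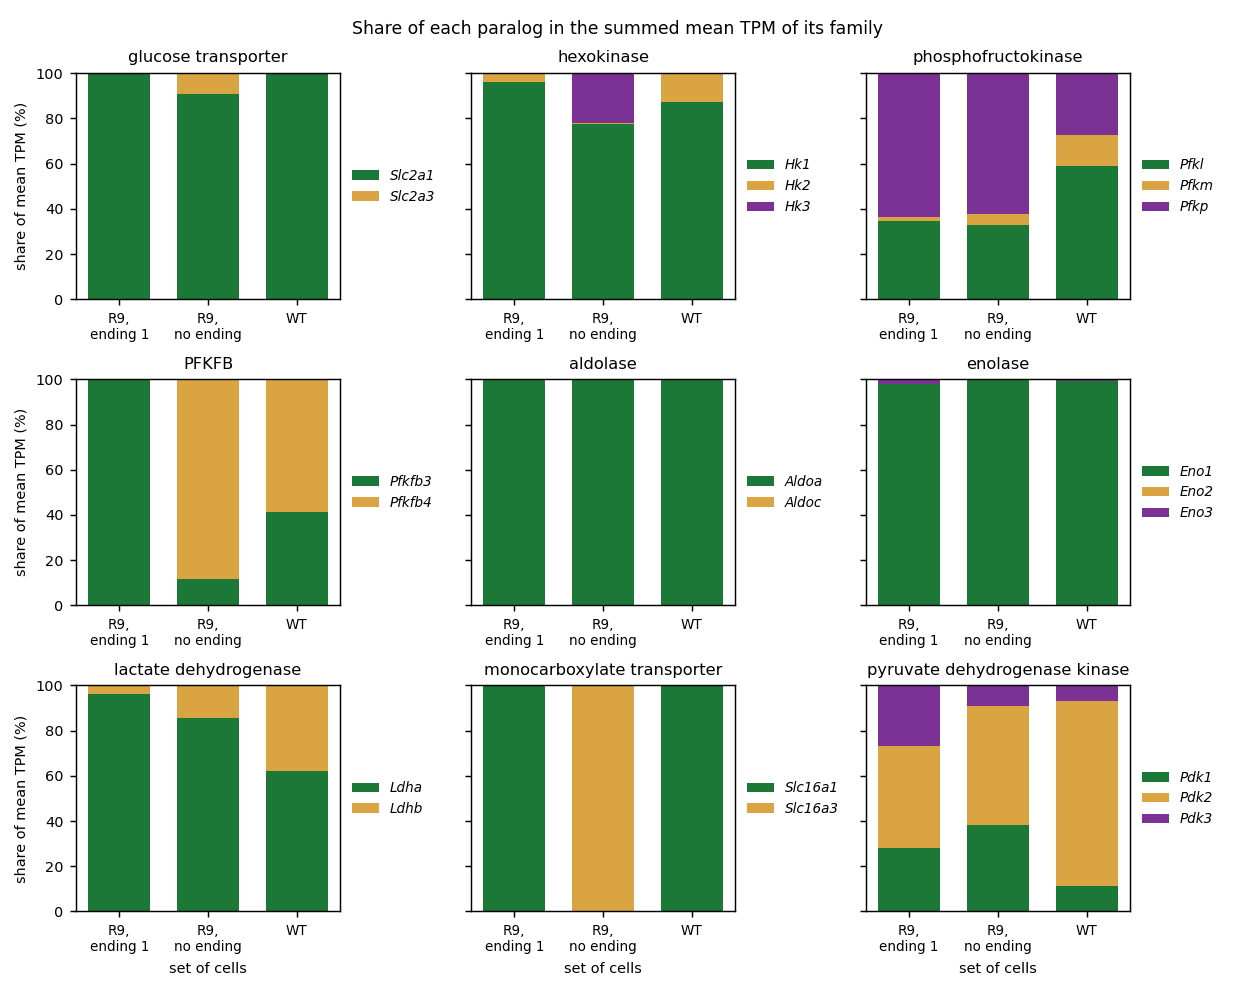
Share of each paralog in the summed mean TPM of its family (vertical axis, percent) for 9 families in R9 cells of title ending 1, R9 cells without an ending and WT cells. Ldhb holds 3.69%, 14.5% and 37.8% of the lactate dehydrogenase pair, while Aldoa and Eno1 hold nearly all of theirs.

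Across the 9 families, the same paralog led by mean level in all 3 sets in 6: Slc2a1, Hk1, Aldoa, Eno1, Ldha and Pdk2. The others were phosphofructokinase, the PFKFB pair and the lactate transporters. The count fell to 4 of 9 when the leader was the gene highest in most cells, and also to 4 without the highest cells. Families seen in few cells thus carry little weight, and the aldolase, enolase and lactate dehydrogenase families rest on nearly all cells.

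Transcripts of the lactate transporter genes on the list were detected in few cells. Slc16a1, which encodes the transporter MCT1, was seen in 3 of 35 R9 cells of ending 1, 0 of 32 without an ending and 2 of 22 WT cells, with at most 148.5 TPM. Slc16a3 was seen in 1 R9 cell without an ending, at 40.1 TPM. Their partner Bsg, a chaperone that brings these transporters to the membrane and is not on the list of 32, was detected in 97.1%, 65.6% and 81.8% of cells at means of 645, 109 and 297 TPM.

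The entry of pyruvate into the citrate cycle was seen in most cells. Pdhb, the beta subunit gene of pyruvate dehydrogenase, was detected in 85.7%, 65.6% and 81.8% of cells. Its levels ran from 0 over a median of 387 to 2097 TPM in R9 cells of ending 1, from 0 over 45.5 to 660 TPM without an ending, and from 0 over 33.1 to 1443 TPM in WT cells. Pdha1, the alpha subunit gene, was detected in 62.9%, 56.2% and 63.6%, with medians of 2.42, 11.9 and 2.53 TPM and highest cells of 1210, 234 and 899 TPM. At 10 TPM or more Pdhb was seen in 71.4%, 65.6% and 59.1% of cells and Pdha1 in 37.1%, 53.1% and 31.8%. The order of the sets thus turned with the limit. Both genes overlapped between all sets. Their log2 ratios of ending 1 over WT, 1.26 and 1.24, were near the 0.94 of all genes. The kinases that switch the complex off were sparse: Pdk1 was seen in 6, 6 and 3 cells, Pdk2 in 9, 4 and 4, and Pdk3 in 3, 2 and 2, all with a median of 0. The highest cells had 428, 49.3 and 67.8 TPM of Pdk1, 771, 121 and 383 TPM of Pdk2, and 1011, 23.9 and 36.5 TPM of Pdk3.

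Hif1a, the oxygen-regulated subunit of HIF-1, was detected in 5 of 35 R9 cells of ending 1, 2 of 32 with no ending and 7 of 22 WT cells (14.3%, 6.25% and 31.8%, with intervals of 4.81 to 30.3, 0.766 to 20.8 and 13.9 to 54.9). Its median was 0 in all sets, and its highest cells had 516, 47.9 and 552 TPM. At 10 TPM or more Hif1a was seen in 3, 2 and 3 cells. Its protein is set mainly by degradation, which transcript levels do not show. Myc was detected in 1, 10 and 2 cells (2.86%, 31.2% and 9.09%, intervals 0.0723 to 14.9, 16.1 to 50.01 and 1.12 to 29.2). Its median was 0 in all sets, and the highest cells had 128.5, 166.5 and 124 TPM. At 10 TPM or more it was seen in 1, 9 and 2 cells. The mast cell and macrophage markers given beside Hk3 differ between the same sets, and their part in the Myc values was not tested.

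Counted over the list, differences between the sets were near those of the whole transcriptome. In R9 cells of ending 1 over WT cells, 12 of 27 members used were higher by 2-fold or more and 4 lower, where 48.8% and 20.4% of all genes were. Without an ending over WT, 7 of 28 were higher and 13 lower, where 26.6% and 44.5% of all genes were. Between the R9 series, 18 of 28 were higher in ending 1 and 4 lower (Hk3, Pfkfb4, Slc16a3 and Myc), where 64.9% and 16.1% of all genes were. Over all R9 cells against WT, 9 of 28 were higher and 8 lower, where 43% and 21.3% of all genes were. These shares, from values as deposited, lie near the background, so they are no result about the list. When cells were scaled by common genes, the split in ending 1 over WT was 8 of 27 higher and 12 lower, where 37.3% and 28.2% of all genes were. Without an ending over WT it was 6 and 13, beside 22% and 42.7%. It was then 16 and 7 between the R9 series, beside 51.8% and 18.8%, and 8 and 12 over all R9 cells, beside 32.9% and 26.8%. Scaling thus turned the split of ending 1 over WT and of all R9 cells over WT, and not that without an ending.

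The median log2 ratio of the members used was 0.94, -0.88, 1.98 and 0.55 in these 4 comparisons, beside 0.94, -0.67, 1.61 and 0.62 over all genes. The comparisons over WT share the WT cells. The summed level of the 19 enzymes had a lowest, median and highest cell of 1387, 5641 and 12249 TPM in R9 cells of ending 1, of 172, 1679 and 22463 TPM without an ending, and of 58.6, 2866 and 24172 TPM in WT cells. The sets overlapped, and R9 cells of ending 1 varied least around their median.

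**Figure D4:**
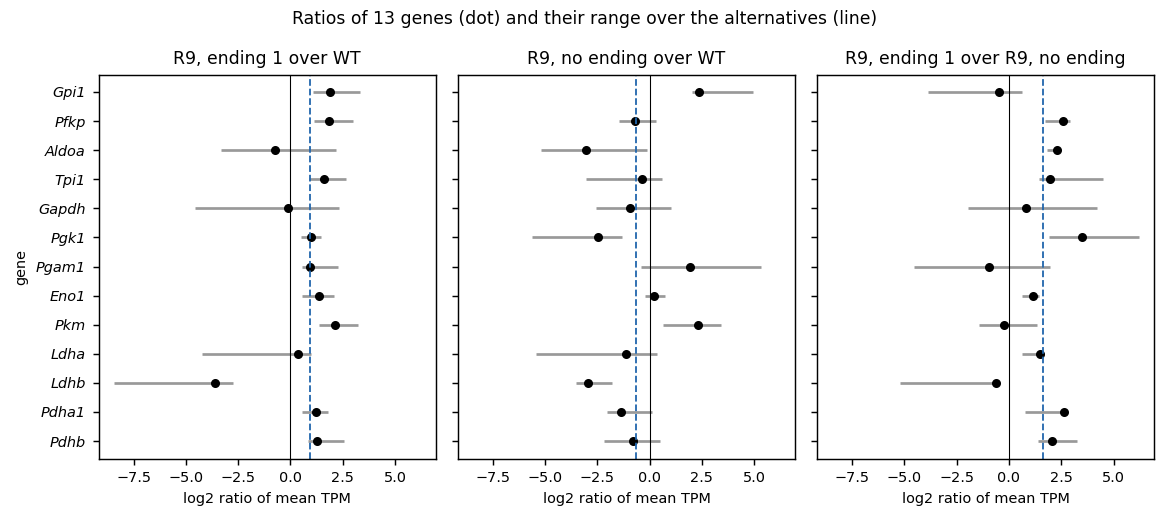
Log2 ratio of mean TPM (horizontal axis) for 13 genes detected in 50% of the cells of some set, with the reported value as a dot and the range over the processing alternatives as a line. The dashed line is the median of all genes (0.94, -0.67 and 1.61), and Ldhb lies left of 0 over its whole range in all 3 panels.

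How the 4 widespread enzymes varied together differed between the sets as deposited. Spearman's rho between Ldha, Aldoa, Eno1 and Pkm over single cells, for 6 pairs of genes, ran from -0.35 to 0.17 in R9 cells of ending 1, from 0.71 to 0.91 without an ending and from 0.04 to 0.66 in WT cells. Cells of a set share depth, library and the fixed sum of TPM, so these are descriptions. Genes in general behaved alike: over all pairs of genes detected in 90% or more of a set's cells, the median rho was 0.0045, 0.66 and 0.29. After scaling all cells by 431 common genes, the median over the 6 enzyme pairs was -0.09, 0.18 and -0.12, and over all pairs 0.02, 0.02 and 0.03. The scaled values of the 6 pairs ran from -0.19 to 0.22, from 0.02 to 0.45 and from -0.24 to 0.26. In R9 cells without an ending all 6 pairs were thus lower under this scaling, and the pairs of Ldha with Aldoa (0.45) and with Eno1 (0.40) were the highest.

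**Figure D5:**
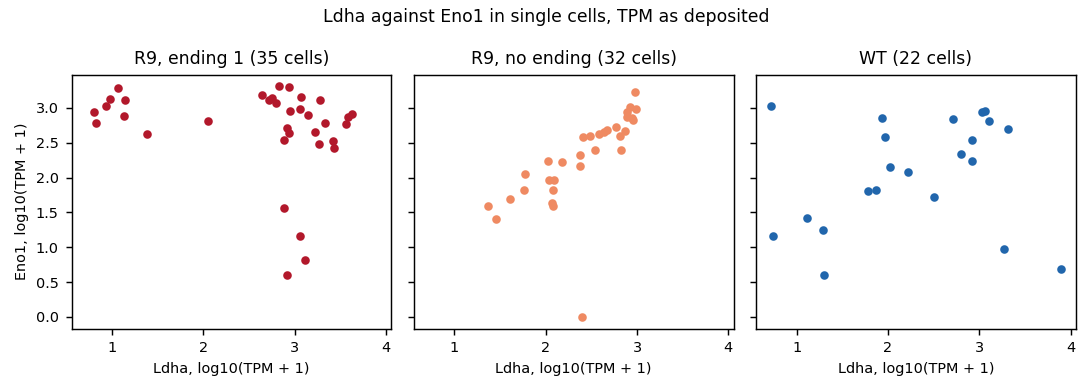
Eno1 against Ldha in each cell, both as log10(TPM + 1), in R9 cells of title ending 1, R9 cells without an ending and WT cells, with TPM as deposited. Points follow a line in the cells without an ending, while high Ldha occurs with low and high Eno1 in the other sets.

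Neighbouring pathways were read from lists of their own, beside the same background of 48.8% higher and 20.4% lower over all genes in ending 1 over WT and 26.6% and 44.5% without an ending. Of 24 genes of pyruvate entry and the citrate cycle, 4 were higher and 5 lower by 2-fold or more in ending 1 over WT, and 2 were higher and 12 of 23 lower without an ending. Their medians were 0.28 and -1.19, beside 0.94 and -0.67 over all genes. Mdh2, the mitochondrial malate dehydrogenase gene, was detected in 35 of 35, 31 of 32 and 19 of 22 cells, at means of 1041, 370 and 722 TPM, of which 1 cell held 49.6% in WT. Mdh1, its cytosolic counterpart, was detected in 35, 29 and 22 cells. All 7 genes of the pentose phosphate pathway were used, and 4 were higher and 1 lower in ending 1 over WT, while 1 was higher and 2 lower without an ending. The lower one in ending 1 was Taldo1, the transaldolase gene, at means of 542, 147 and 1802 TPM. A single WT cell at 24815 TPM held 62.6% of the WT sum, and the WT mean was 706 TPM without it. The medians, 614, 55.4 and 195 TPM, put ending 1 above WT, so no direction is given for Taldo1 between these sets.

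Of 9 hexose enzyme and transporter genes of enterocytes, 2 were higher and 5 lower in ending 1 over WT, and all 7 used were lower without an ending, against the background given above. These counts rest on few cells, since 6 of the 9 genes were detected in at most 2 WT cells. Beside them, 13 of the 14 epithelial markers were lower and 0 higher by 2-fold or more in ending 1 over WT, and 7 were lower and 6 higher without an ending. Their part in these values was not tested. Among other glucose transporters, Slc2a6 was seen in 14, 10 and 5 cells, and Slc2a8 in 11, 0 and 4, both of them in more cells of ending 1 than Slc2a1.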

How the data were processed

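Single cells were sorted from mouse intestine, and polyA RNA was reverse transcribed and amplified (Discover-sc WTA Kit V2). Libraries came from the TruePrep DNA Library Prep Kit V2. Both kits are named per the labels' protocols. The submitters' processing notes name bcl2fastq, HISAT2 2.1.0, SAMtools 0.1.19, StringTie 1.3.4 and the build mm10, with no order or settings. The authors deposited TPM in 2 tables, 1 for R9 and 1 for WT, with 98 columns in all, each of which sums to 1e+06.

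WT columns were averaged where their Pearson r exceeded 0.8, on the log2(TPM + 1) of genes that both had at 1 TPM or more. That left 22 cells of 31 columns, 8 of them from more than 1 column (r from 0.844 to 0.995, with 24.0% to 92.2% of detected genes shared). The design and the joining follow earlier work on these tables, and that joined columns are 1 cell is an assumption. Ratios are log2((mean TPM in the first set + 1)/(mean TPM in the second set + 1)), a scale that understates differences of low genes. Genes whose mean reached 1 TPM in at least 1 of the 2 sets were used, and a ratio past 2-fold was counted as higher or lower. The ratio calculation was tested on simulated data, for genes of high mean in WT cells only and with ratios centred on their median. That test does not cover genes of low mean or ratios set by 1 cell. The 32 members and the other lists were chosen with earlier results of these data known. All members are named, with the median and highest level per set where a mean reached 10 TPM, and of other lists at most 4 genes with the highest mean. Near-identical copies were searched with BLAST 2.17.0 on GENCODE transcripts of GRCm38. Gene coordinates are from RefSeq, as are the promoter windows (GRCm38.p6). Values were computed in Python 3.11.15 (scipy 1.17.1, pandas 2.3.3, numpy 2.4.6) and drawn with matplotlib 3.10.9. The alternatives were other pseudocounts, the mean of log values, the filter, the scaling, the detection limit and the cells used. Those on the Ldha and Ldhb order and on scaled correlations were chosen after seeing the data.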

Additional observations from a re-analysis of the deposited data

How the results depend on the processing

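No paired analysis was possible because title numbers only name cells and no test was made. Of 214 recomputed summary values, 192 stayed within the limits set for them, 22 moved and none reversed. For genes, 399 of 468 ratios stayed, 66 moved and 3 reversed. Alternatives that changed only the filter on the mean could not move a gene's ratio, and they count among those that stayed. As a difference of mean log2 levels, Ldha without an ending over WT was 0.35 and Pdha1 0.13, and without the highest cell of each set Pgam1 was -0.43. The cause was not tested.

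For the cells of ending 1 over WT, the count of members lower by 2-fold or more (4) was 2 by the difference of mean log2 levels, 12 when cells were scaled by common genes and 8 without cells in which a single gene held 10% or more. Without an ending over WT, the count higher (7) was 3 with a pseudocount of 10 TPM, 3 by mean log2 levels and 4 without those cells, the count lower (13) was 4 by mean log2 levels, and the median was -0.17. Between the R9 series, the count higher (18) was 8 and the count lower (4) was 2 by mean log2 levels, 1 with a pseudocount of 10 TPM, 1 with a minimum mean of 10 TPM and 7 when scaled. The median there was 1.24 with a pseudocount of 10 TPM and 0.42 by mean log2 levels. Over all R9 cells, the count lower (8) was 2 by mean log2 levels and 5 without the highest cells. In ending 1, the median summed enzyme level was 2098 TPM when scaled, members detected per cell were 9 at 10 TPM and 15 above 0, and the share of cells with more Ldhb than Ldha was 0% without cells over 4000 genes or without the highest epithelial cells.

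Common-gene scaling brought the median of all genes to 0.40, -0.64 and 1.05 in the comparisons of ending 1 over WT, no ending over WT and ending 1 over no ending. Depth is unknown from TPM, joining WT columns rests on an assumption, and cells of a set share unnamed animals. The 2 R9 series differ in the share of low values, so detection at 1 TPM is not equally strict in them. The title series and any unstated difference in handling cannot be told apart.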

Other observations

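Genes of the response to low oxygen were seen at levels on both sides of WT. Of 15 used, 7 were higher and 3 lower by 2-fold or more in R9 cells of ending 1 over WT cells, where 48.8% and 20.4% of all genes were. Without an ending over WT, 5 of 13 were higher and 8 lower, where 26.6% and 44.5% of all genes were. Few cells carry these counts, since 7 of the 16 genes of this list were detected in at most 2 WT cells, and 3 in none. Bnip3l, a mitophagy receptor gene that HIF-1 induces, had means of 184, 30.3 and 150 TPM in R9 cells of ending 1, R9 cells without an ending and WT cells, and was detected in 30 of 35, 15 of 32 and 14 of 22 cells. Bnip3, its paralog, had means of 34.9, 28.2 and 84.4 TPM and log2 ratios over WT of -1.25 and -1.55, but 1 cell held 96.5% of the WT sum and the WT mean was 3.12 TPM without it. Egln2, which encodes a prolyl hydroxylase that marks HIF subunits for degradation, had means of 84.0, 20.2 and 3.20 TPM, with log2 ratios over WT of 4.34 and 2.33. It was seen in 12, 8 and 5 cells, and its highest cells had 707, 239 and 24.2 TPM.

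Of the Myc partner and mTOR genes, 5 of 10 used were higher and 3 lower in ending 1 over WT, and 2 were higher and 4 lower without an ending, beside the same shares of all genes. Here too, 5 of 12 genes were detected in at most 2 WT cells. Rheb, which encodes the GTPase that activates mTORC1, was detected in 30, 14 and 17 cells, at means of 293, 298 and 689 TPM. Its highest cells had 1206, 7886 and 11481 TPM, and without the highest cell of each set the means were 266, 53.3 and 175 TPM.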
